A study of Homo sapiens with 8 samples.

Results

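The genes described here make ribosomes or drive that process: 44 genes of the 20263 in the deposited table, chosen by symbol from a list of small nucleolar ribonucleoprotein (snoRNP), ribosomal RNA processing, RNA polymerase I and MYC genes. All 44 were found. No measured value entered the choice, although it was made with earlier results of these data known. Total RNA of MHCC-97H cells, a line derived from human liver cancer, was sequenced after 24 hours of exposure. The treated arm held 4 libraries with lenvatinib, which blocks several receptor tyrosine kinases including those for VEGF and FGF, with 1 library at each of 40, 60, 80 and 100 µM. The other arm held 4 libraries with DMSO, the solvent. All cells were grown in DMEM with fetal bovine serum, and the labels name no genetic change. Nothing in the labels says that the libraries of an arm are separate cultures; the p-values therefore rest on a spread between libraries that may be technical.

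Ribosomes are assembled in the nucleolus. RNA polymerase I, with the factor UBTF, transcribes the long precursor of the ribosomal RNAs. Box C/D snoRNPs methylate this precursor and box H/ACA snoRNPs convert uridines to pseudouridine, each guided by a small nucleolar RNA, and separate sets of assembly factors then build the small and the large subunit. MYC, a transcription factor that binds DNA with its partner MAX at a motif called the E-box, is a known activator of many of these genes and is often raised in liver cancer.

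The motif searched was CACGTG, which reads the same on both strands. RefSeq promoter windows (GRCh38.p14, 250 bases before to 50 after a start site) were at hand for 37 of the 44 genes, and 18 of these 37 genes (48.6%) had the motif in at least 1 window. Over all 27305 genes with such windows the share was 8.77%, and over the 9323 of them that were tested it was 13.1%. By window, the shares were 39.1% for the 44-gene set, 9.66% for genes tested and 7.26% for all windows. Of the 19 occurrences in the set, 17 lay within 50 bases of the start site. The windows end 50 bases after that site, so every match past it lies this near. The same count was not made for other genes, so no preference for the start site can be read from it. A match describes these letters only, and is not evidence of binding.

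The sequences below are shown because the set holds the motif more often than the table as a whole; capitals mark it. They come from FBL (chr19:39846356-39846385, minus strand), UTP20 (chr12:101280083-101280112, plus strand), LYAR (chr4:4290068-4290097, minus strand), UTP4 (chr16:69132621-69132650, plus strand), DDX21 (chr10:68956604-68956633, plus strand) and PES1 (chr22:30591880-30591909, minus strand), each read 5′ to 3′ on the strand of the gene. The last line gives the 250 bases before the start site of NAT10, the acetyltransferase of 18S ribosomal RNA (chr11:34105379-34105628, plus strand).
FBL: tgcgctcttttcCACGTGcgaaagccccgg
UTP20: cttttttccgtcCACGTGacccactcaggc
LYAR: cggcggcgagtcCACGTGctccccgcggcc
UTP4: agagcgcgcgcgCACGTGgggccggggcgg
DDX21: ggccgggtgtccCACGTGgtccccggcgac
PES1: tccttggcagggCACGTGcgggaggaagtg
NAT10: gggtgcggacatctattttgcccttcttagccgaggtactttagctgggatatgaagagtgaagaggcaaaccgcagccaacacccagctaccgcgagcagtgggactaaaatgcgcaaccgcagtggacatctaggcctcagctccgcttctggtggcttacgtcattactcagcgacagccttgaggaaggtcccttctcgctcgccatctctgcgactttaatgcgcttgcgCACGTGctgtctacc

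The lenvatinib libraries held between 10181973 counts (60 µM) and 37384578 counts, and the DMSO libraries between 30635814 and 34240835. The 60 µM library stood apart: it had reads for 11076 genes, against 13290 to 14340 in the others, and 5 of the 44 genes (NOP58, UTP20, DDX10, GNL3 and LYAR) had 0 counts in it, which allows up to 0.483 CPM (counts scaled to library size with TMM factors, the scale of all levels below unless stated; the limit covers counting error only). Libraries also differed along the GC content of genes. Each library's GC slope (how its log2 levels, relative to the average of all 8 libraries, change per 10 percentage points of GC) was 0.67, 1.82, -0.58 and -0.6 at 40, 60, 80 and 100 µM, against 0.28, -0.5, -0.99 and -0.1 in DMSO 1 to 4. The arm means, 0.33 ± 1.16 and -0.33 ± 0.55 (SD, n = 4 each), did not differ beyond their spread (2-sided exact permutation test, p = 0.429, smallest possible 0.0286). The samples are labelled liver. Of 7 hepatocyte markers TTR was at 0 in every library. ALB, AFP, APOA1 and TF were above 0 at 60 µM only, with 6, 2, 10 and 4 counts. SERPINA1 was at 0.171 to 1.61 CPM with lenvatinib and 0.217 to 0.714 CPM with DMSO. HNF4A was low, at 1 to 3.42 CPM with lenvatinib and 6.87 to 9.83 CPM with DMSO. Summed, these markers reached 1.19 to 6.44 CPM with lenvatinib and 7.25 to 10.2 CPM with DMSO. The epithelial markers KRT8, KRT18 and EPCAM reached 3690 to 13200 and 5040 to 14400 CPM in sum. Nearly all of this was KRT8 and KRT18. EPCAM was at 0 to 0.634 CPM with lenvatinib and 0.119 to 0.927 CPM with DMSO. The fibroblast markers COL1A1 and DCN were at 31.6 to 42.5 and 3.22 to 15.2 CPM with lenvatinib. With DMSO they were at 23.9 to 28.9 and 10 to 21.3 CPM. COL1A2, also a fibroblast marker, and the immune marker PTPRC were at 0 in every library. The endothelial markers PECAM1 and CDH5 reached at most 0.24 CPM in sum. The part of these differences in the results below was not tested.

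The 44 genes together took a smaller share of the counts in every lenvatinib library than in any DMSO library. The shares were 0.46%, 0.399%, 0.487% and 0.509% at 40, 60, 80 and 100 µM, against 0.557%, 0.599%, 0.716% and 0.571% in DMSO 1 to 4. The arm means were 0.464 ± 0.0474% with lenvatinib and 0.611 ± 0.0726% with DMSO (SD, n = 4 each). With TMM scaling, which corrects for the composition of each library, the arms overlapped, at 0.38% to 0.654% with lenvatinib and 0.515% to 0.651% with DMSO. The shares were divided by TMM factors of 0.778, 0.61, 1.28 and 1.27 with rising dose, and 0.855, 1.16, 1.32 and 0.982 in DMSO 1 to 4. The lowest factor, at 60 µM, thus raised the lowest share most. Abundant genes weigh most in the sum: NPM1 alone gave 37782 of the set's 225424 counts in DMSO 3. How often other sets of genes separate in this way was not counted. RNA from whole cultures cannot tell fewer cells of a kind apart from less RNA per cell.

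Gene by gene, 33 of the 44 had a lower fitted level with lenvatinib than with DMSO and 11 a higher one, with a median log2 fold change of -0.46. Over all 11827 genes tested 56.2% were lower, and the median was -0.11. None of the 44 passed an adjusted p of 0.05 in edgeR's quasi-likelihood test, and neither did any other gene (0%). At an unadjusted p under 0.05, 1 of the 44 was found, UTP4, against 4.42% of all genes (523). Called genes numbered 94 in DESeq2, none of them among the 44, and 0 in limma-voom. All 4 values with lenvatinib were below the DMSO range for 4 of the 44 (NOP56, NAT10, POLR1A and GAR1; 3.38% of all genes) and above it for none (3.08% of all genes).

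**Figure D1:**
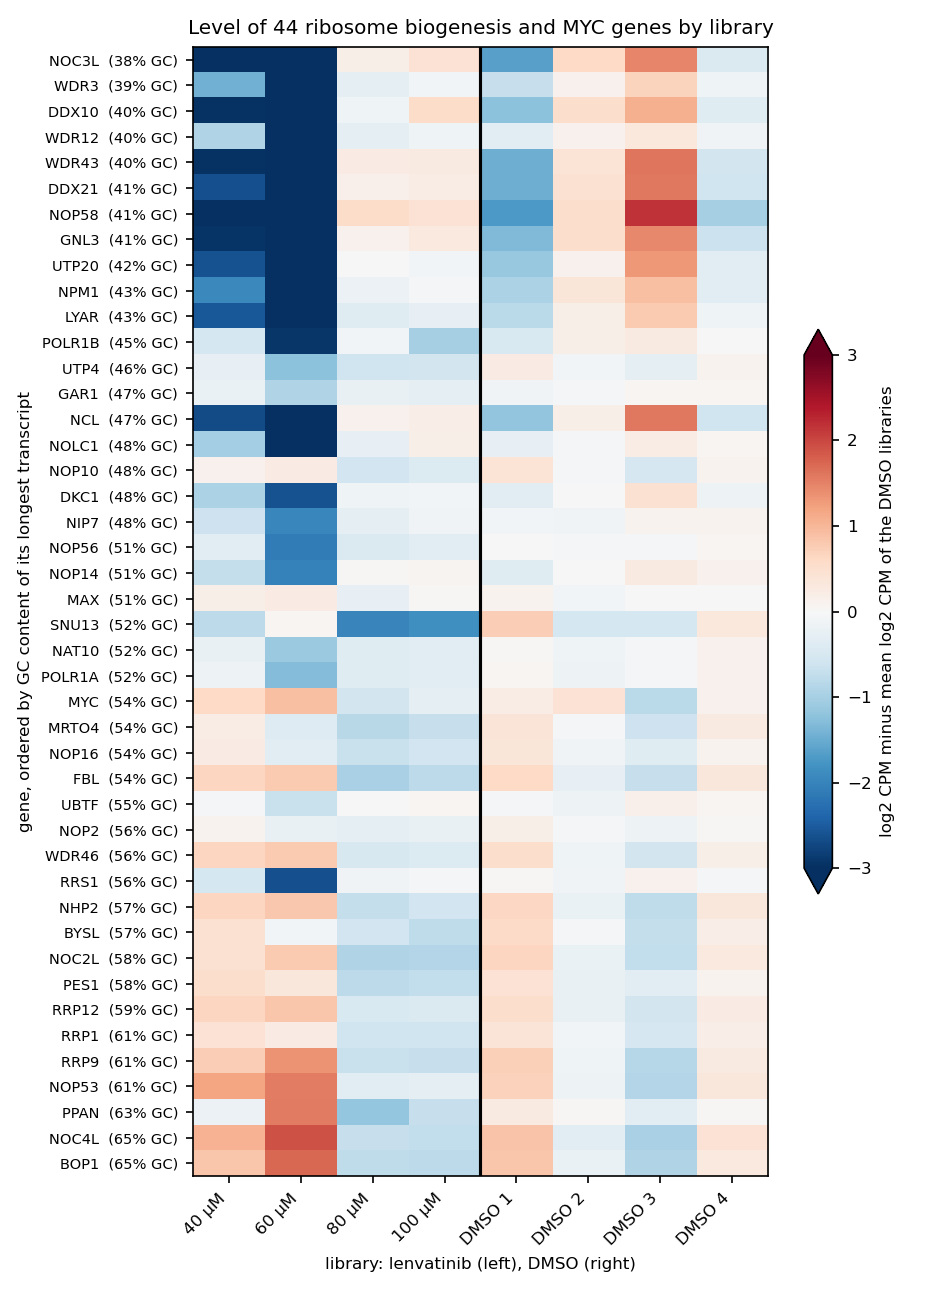
Levels of the 44 genes in each library as log2 CPM minus the mean log2 CPM of the DMSO libraries (colour, capped at 3 in either direction), with genes ordered down the page by the GC content of their longest transcript and libraries across it, lenvatinib left of DMSO. Genes low in GC are blue at 40 and 60 µM and in DMSO 1, and red in DMSO 3, whereas SNU13 is blue at 80 and 100 µM.

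The spread between libraries of 1 arm followed the GC content of the genes, which ran in the set between 37.7% and 65.2% with a median of 51.5%. All genes tested had a median of 49.1%, with a 5th and a 95th percentile of 37.1% and 64.6%. Across the 44 genes, the correlation (Pearson's r, a description over genes of the same libraries) between GC content and level relative to the DMSO mean was 0.82, 0.84, -0.59 and -0.6 at 40, 60, 80 and 100 µM, and 0.86, -0.73, -0.83 and 0.76 in DMSO 1 to 4. The lenvatinib over DMSO log2 fold change correlated with GC content at r = 0.89. All 11823 tested genes with a GC value shared the trend, at r = 0.61 for the fold change. By library their r was 0.69, 0.73, -0.34 and -0.41 with rising dose, and 0.71, -0.45, -0.73 and 0.51 in DMSO 1 to 4. The 12 genes under 45% GC had median deviations of -2.62, -5.48, -0.03 and 0.08 (log2) at 40, 60, 80 and 100 µM, and the 4236 tested genes in that range had -1.3, -3.12, 0.31 and 0.34. The 14 genes over 55% GC had 0.58, 0.8, -0.63 and -0.65 in the same order, and the 3816 tested genes there had 0.68, 1.28, -0.2 and -0.24. At every dose and in both ranges the median of the set was below that of the tested genes of similar GC content. The low-GC genes of the set also moved further than other low-GC genes among the DMSO libraries, at -1.18, 0.39, 1.18 and -0.35 in DMSO 1 to 4, against -0.81, 0.26, 0.87 and -0.28 for all such genes.

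**Figure D2:**
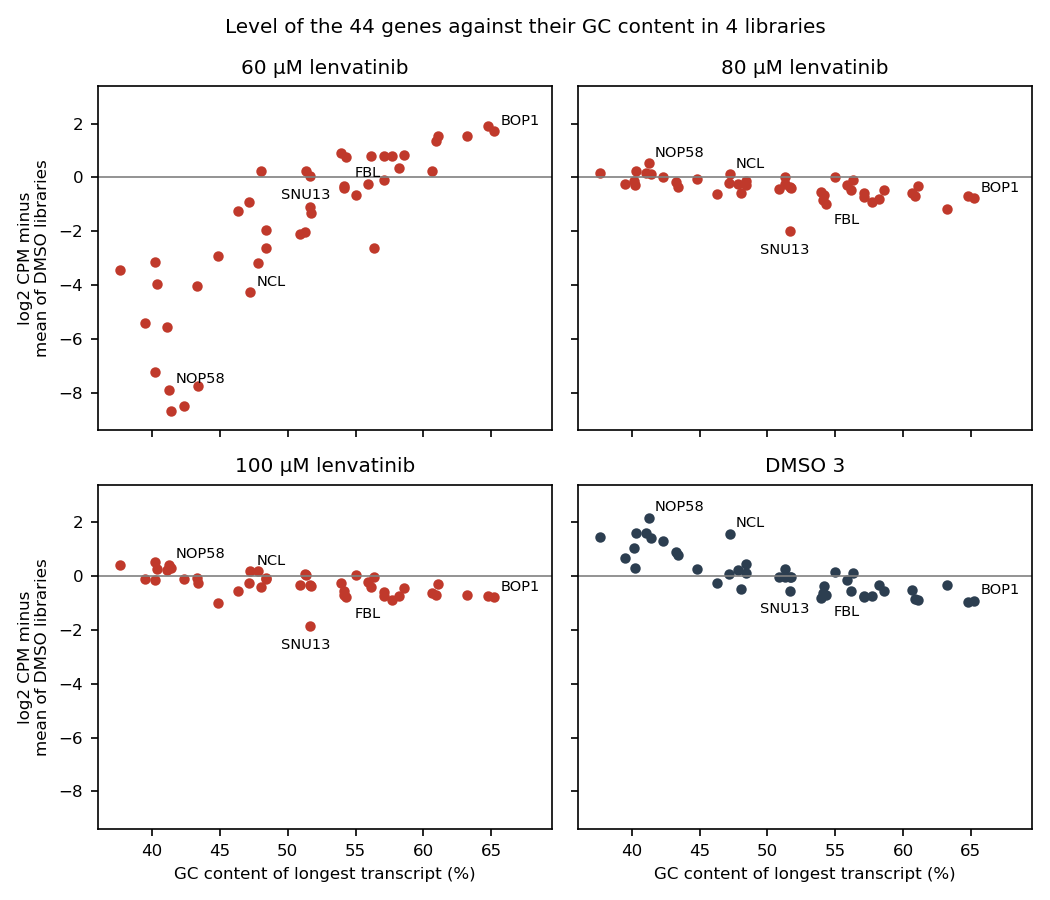
Level of each of the 44 genes (log2 CPM minus the mean of the DMSO libraries, vertical) against the GC content of its longest transcript (horizontal, percent) in the 60, 80 and 100 µM lenvatinib libraries and in DMSO 3; genes with 0 counts at 60 µM are placed by a prior count of 2. Points rise with GC content at 60 µM (r = 0.84) and fall with it in the other panels (r = -0.59, -0.6 and -0.83), and SNU13 lies below its neighbours at 80 and 100 µM.

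With the GC slope of each library as a covariate, all 44 genes had a lower fitted level with lenvatinib, against 57.2% of all genes. The correlation of the log2 fold change with GC content was 0.13 over the 44 genes and 0 over all genes. The covariate is the GC trend of these same libraries, so a fall of this correlation was built into the fit. The median log2 fold change of the set was -0.42, against -0.06 for all genes. Only SNU13 passed the adjusted threshold in this edgeR fit, where 386 genes did (3.26%), 211 of them lower (1.78%). At an unadjusted p under 0.05, 17 of the 44 were lower and none higher, and 11.9% of all genes were lower. The median of the set minus that of all genes was -0.36 with TMM scaling, with DESeq2 size factors and with library totals alone. The totals moved the median of all genes by 0.11, and with them 41 of the 44 were below 0.

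These counts moved with single lenvatinib libraries. Without the 60 µM library 30 of the 44 genes were called lower in the GC-adjusted edgeR fit, against 13.7% of all genes, and without the 40 µM library 10 were called, where 1006 genes in all were called in either direction. Without the 80 µM library none was called, nor was any other gene. The 14 genes not called without the 60 µM library were NOP58, GAR1, NOLC1, NOP14, DDX10, NOP2, NOP53, RRS1, NIP7, NOC3L, POLR1B, UBTF, MYC and MAX. In this setting 42 of the 44 fold changes were negative, with a median of -0.38 against -0.03 for all genes.

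**Figure D3:**
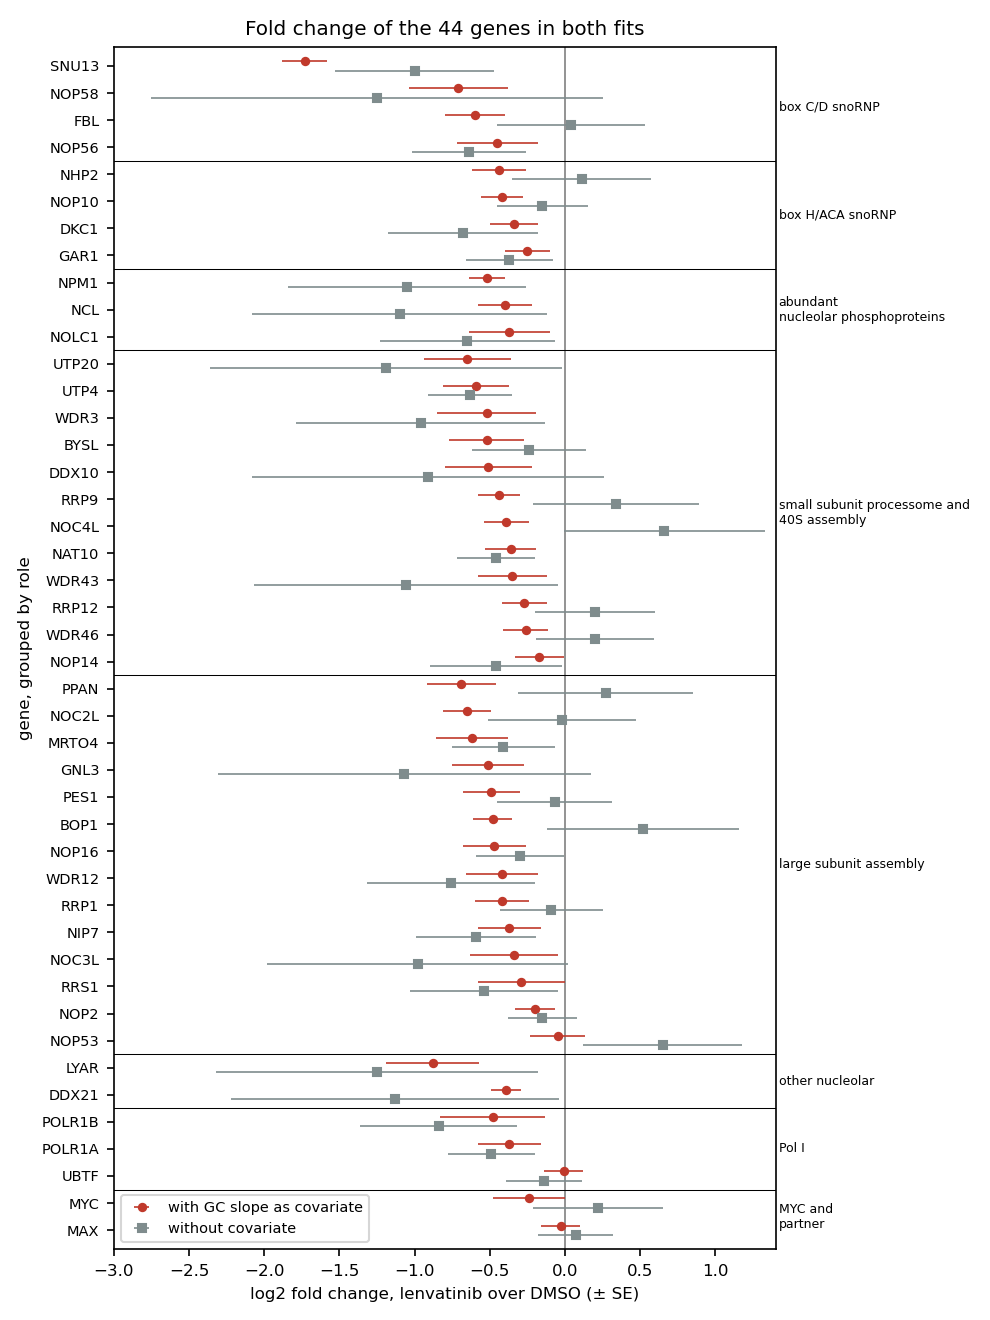
Log2 fold change (lenvatinib over DMSO, with its SE) of each of the 44 genes, grouped by role down the page, from the edgeR fit with the GC slope as covariate (red circles) and without it (grey squares), 4 libraries per arm. The red circles lie between -1.73 (SNU13) and -0.01 (UBTF), and the grey squares between -1.25 and 0.66 with wider errors.

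Among the box C/D snoRNP proteins, SNU13 had the lowest GC-adjusted log2 fold change. SNU13 (ENSG00000100138, chr22:41673930-41690504) binds the kink-turn of box C/D small nucleolar RNAs and of the U4 spliceosomal RNA. Its level was 121, 219, 52.6 and 58.1 CPM at 40, 60, 80 and 100 µM, against 351, 146, 144 and 260 CPM in DMSO 1 to 4. The 80 and 100 µM values were the lowest of all 8, the 40 µM value was also below the DMSO range, and the 60 µM value was within it. The GC-adjusted log2 fold change was -1.73 ± 0.15 (SE; edgeR adjusted p = 0.00421), and it ran from -1.83 to -1.63 when single libraries were left out. Without the 80 µM library its edgeR adjusted p was 0.0524; with any other single library left out it was under 0.05. Without the covariate the change was -1 ± 0.53 (edgeR adjusted p = 0.874). The next lowest GC-adjusted value in the set was -0.88, for LYAR.

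The other box C/D proteins did not pass the threshold in edgeR with TMM scaling, the filter at 1 CPM and all libraries. FBL did in DESeq2 with the covariate (adjusted p = 0.00123), where 2038 genes in all were called. NOP56, a scaffold of the particle (ENSG00000101361, chr20:2652145-2658393), was at 98.2, 29.3, 92.5 and 101 CPM with rising dose, against 125, 122, 122 and 130 CPM in DMSO 1 to 4. Every lenvatinib value was below every DMSO value, and the 60 µM value was far below the rest. Its GC-adjusted log2 fold change was -0.45 ± 0.27 (edgeR adjusted p = 0.391), and -0.35 ± 0.07 without the 60 µM library (edgeR adjusted p = 0.0068).

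NOP58, the partner scaffold (ENSG00000055044, chr2:202265716-202303666), is the low-GC counterpart, with 41.3% GC against 50.9% for NOP56. It was at 0.257, 0, 21.1 and 19.5 CPM with rising dose, against 4.35, 20.9, 65.6 and 7.23 CPM in DMSO 1 to 4. The arms overlapped, and the DMSO libraries alone differed 15.1-fold. The DMSO values of NOP56 differed 1.07-fold. FBL, the fibrillarin methyltransferase (ENSG00000105202, chr19:39834458-39846414), ran the other way, at 448, 494, 147 and 167 CPM, against 437, 242, 178 and 367 CPM in DMSO 1 to 4. The 80 and 100 µM values were below the DMSO range and the 40 and 60 µM values above it. Its log2 fold change was 0.04 ± 0.49 without the covariate and -0.6 ± 0.2 with it (edgeR adjusted p = 0.979 and 0.139).

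The box H/ACA proteins had GC-adjusted log2 fold changes between -0.44 (NHP2) and -0.25 (GAR1). None passed the threshold in edgeR with TMM scaling, the filter at 1 CPM and all libraries (lowest adjusted p = 0.141). Without the 60 µM library 3 of the 4 did (NHP2, NOP10 and DKC1), where 13.7% of all genes were called lower. DKC1, the pseudouridine synthase dyskerin (ENSG00000130826, chrX:154762742-154777689), was at 54, 17.1, 95.7 and 99.6 CPM with rising dose, against 83.9, 106, 143 and 95.1 CPM in DMSO 1 to 4. The 40 and 60 µM values were below the DMSO range and the other lenvatinib values within it. GAR1, a core protein of these particles, was at 12.1 to 19.6 CPM with lenvatinib and 21.2 to 23.7 CPM with DMSO, without overlap. NOP10, the smallest core protein, and NHP2, which binds the guide RNA, overlapped between arms, at 63.9 to 113 against 67.8 to 128 CPM and at 159 to 456 against 153 to 402 CPM.

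The abundant nucleolar phosphoproteins were lowest at 60 µM and highest in DMSO 3. NPM1, nucleophosmin (ENSG00000181163, chr5:171387116-171411137), a histone and ribosome chaperone, was at 126, 29.1, 427 and 462 CPM with rising dose, against 251, 625, 907 and 382 CPM in DMSO 1 to 4. The 80 and 100 µM values fell within the DMSO range and the lower doses below it. Its GC-adjusted log2 fold change was -0.52 ± 0.12 (edgeR adjusted p = 0.0551), and -0.48 ± 0.07 without the 60 µM library (edgeR adjusted p = 0.00177). With all libraries it passed the threshold in DESeq2 (adjusted p = 2.97e-09) and limma-voom (adjusted p = 0.0297). These fits called 2038 and 830 genes in all. In edgeR it did with DESeq2 size factors (adjusted p = 0.00956) and the filter at 5 CPM (adjusted p = 0.0262). Library totals only, no filter and a replicate block left it above the threshold. NPM1 has many processed pseudogenes, so its count is uncertain. NCL, nucleolin (ENSG00000115053, chr2:231453531-231464594), was at 27.2, 9.17, 192 and 200 CPM, against 77.8, 199, 527 and 116 CPM in DMSO 1 to 4. This was a 21.8-fold range with lenvatinib and a 6.77-fold range with DMSO, and the GC-adjusted log2 fold change was -0.4 ± 0.18 (edgeR adjusted p = 0.248). NOLC1, a chaperone of snoRNPs, was at 15.9 to 164 CPM with lenvatinib and 122 to 169 CPM with DMSO, with a GC-adjusted log2 fold change of -0.37 ± 0.27.

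**Figure D4:**
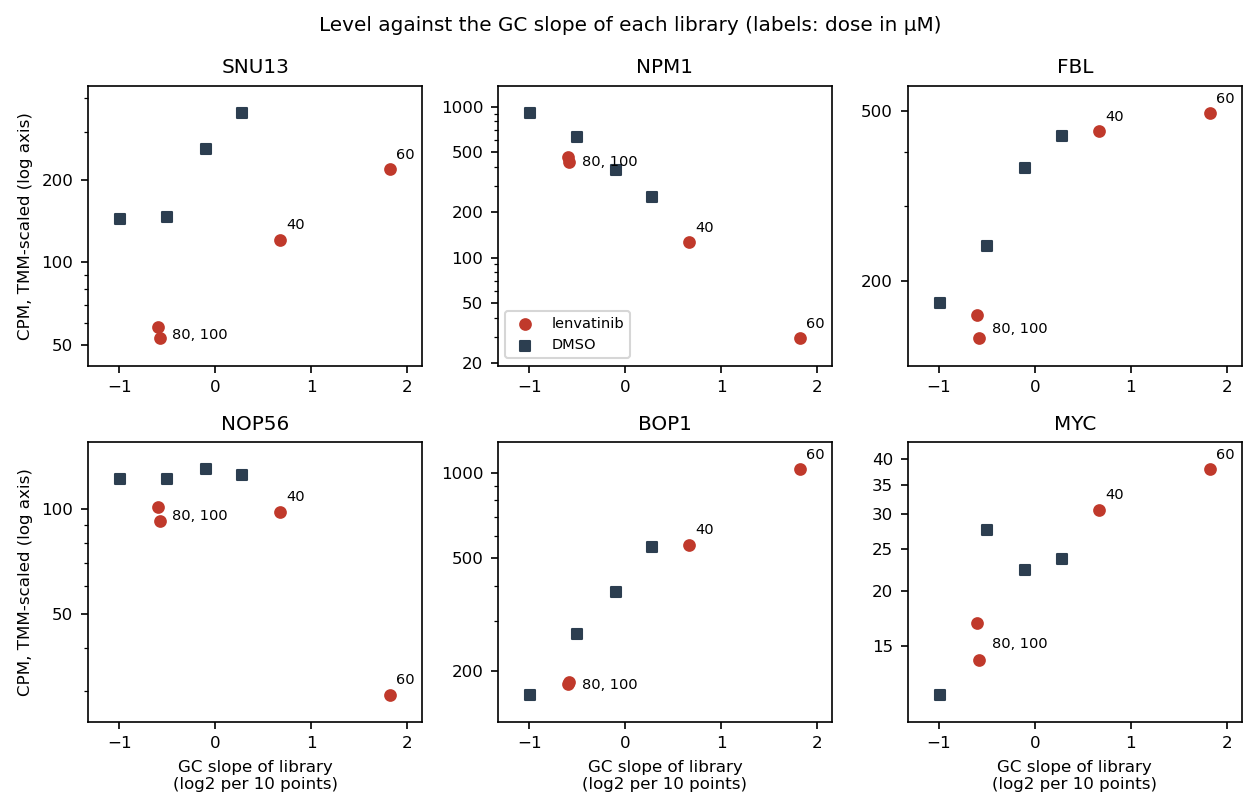
Level of 6 genes (TMM-scaled CPM, log axis) against the GC slope of each library (log2 per 10 percentage points), with lenvatinib libraries as red circles marked with their dose and DMSO libraries as dark squares. The SNU13 points at 80 and 100 µM (52.6 and 58.1 CPM) lie below those of all DMSO libraries, NPM1 falls and FBL and BOP1 rise with the slope in both arms, MYC is higher at 40 and 60 µM than at 80 and 100 µM, and the NOP56 points of DMSO are nearly level at 122 to 130 CPM.

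The 12 genes of the small subunit processome and 40S assembly had a median GC-adjusted log2 fold change of -0.42, and none passed the threshold in edgeR with TMM scaling, the filter at 1 CPM and all libraries, whereas 10 did without the 60 µM library (13.7% of all genes were called lower there). DESeq2 with the covariate and all libraries called 2038 genes, 17 of them in the whole set. NOC4L was among these (adjusted p = 0.00326). DESeq2 values were read for selected genes only, so other genes of this group may have passed too. UTP4, a subunit of the early processome (ENSG00000141076, chr16:69131291-69169038), was at 93.9, 47.6, 73.6 and 76.5 CPM with rising dose, against 132, 106, 93.8 and 120 CPM in DMSO 1 to 4; the arms met only at 40 µM and DMSO 3. Its log2 fold change was -0.63 ± 0.28 without the covariate and -0.59 ± 0.22 with it (edgeR adjusted p = 0.874 and 0.175). NAT10 (ENSG00000135372, chr11:34105602-34146910) was at 104, 55.9, 94.8 and 96.6 CPM, against 124, 111, 118 and 132 CPM in DMSO 1 to 4, without overlap.

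UTP20 and NOC4L mark the ends of the range in this group. UTP20, a very large scaffold (ENSG00000120800, chr12:101280109-101386616, 42.3% GC), was at 3.59, 0, 22.4 and 20.8 CPM with rising dose, against 10.1, 24.4, 55 and 17.8 CPM in DMSO 1 to 4. NOC4L, a 40S export and assembly factor (ENSG00000184967, chr12:132144448-132152441, 64.8% GC), was at 200, 367, 60.1 and 58.7 CPM, against 176, 77.4, 49.7 and 131 CPM in DMSO 1 to 4. The libraries with high UTP20 had low NOC4L. With no covariate UTP20 had a log2 fold change of -1.19 ± 1.17 and NOC4L one of 0.66 ± 0.67; with it they had -0.65 ± 0.29 and -0.39 ± 0.15 (edgeR adjusted p = 0.249 and 0.189).

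The other 8 genes of this group, which include the U3 particle protein RRP9 and the export factor RRP12, had GC-adjusted log2 fold changes between -0.52 (WDR3 and BYSL) and -0.17 (NOP14). WDR3 had a 41.8-fold range over the lenvatinib libraries. RRP9, WDR46 and RRP12 were higher on average with lenvatinib than with DMSO, at 149 ± 102, 149 ± 66.4 and 190 ± 86.4 CPM, against 118 ± 50.8, 130 ± 40.3 and 166 ± 54.2 CPM (SD, n = 4 each). At 80 and 100 µM their levels were within the DMSO range.

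The 14 large subunit assembly factors had a median GC-adjusted log2 fold change of -0.45, and none passed the threshold in edgeR with TMM scaling, the filter at 1 CPM and all libraries, whereas 9 did without the 60 µM library, where 13.7% of all genes were called lower. DESeq2 with the covariate and all libraries called 2038 genes, 17 of them in the whole set. BOP1 was among these (adjusted p = 1.96e-09). DESeq2 values were read for selected genes only, so other genes of this group may have passed too. BOP1 (ENSG00000261236, chr8:144262102-144291370), PES1 (ENSG00000100029, chr22:30576625-30607083) and WDR12 (ENSG00000138442, chr2:202874782-202912226) form the PeBoW complex, which is needed for 28S and 5.8S RNA processing. BOP1 was at 558, 1030, 183 and 180 CPM with rising dose, against 549, 270, 165 and 381 CPM in DMSO 1 to 4. PES1 was at 220, 194, 88.4 and 91.9 CPM, against 207, 130, 123 and 164 CPM. WDR12 was at 14.6, 3.06, 22.5 and 25.1 CPM, against 21.8, 29.8, 34.2 and 25.6 CPM.

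The 3 subunits thus had unlike profiles, BOP1 and PES1 high and WDR12 low at 40 and 60 µM, in the order of their GC contents of 65.2%, 58.2% and 40.2%. With no covariate BOP1, PES1 and WDR12 had log2 fold changes of 0.52 ± 0.64, -0.07 ± 0.38 and -0.76 ± 0.56. With it they were -0.48 ± 0.13, -0.49 ± 0.19 and -0.42 ± 0.24 (edgeR adjusted p = 0.0938, 0.205 and 0.368).

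NOP53, which recruits the exosome to the pre-60S particle (ENSG00000105373, chr19:47745522-47757058), was at 614, 788, 217 and 223 CPM with rising dose, against 438, 246, 147 and 341 CPM in DMSO 1 to 4. Its GC-adjusted log2 fold change was near 0, at -0.05 ± 0.18. NOC2L, a pre-60S transport factor that also binds p53, was at 785, 990, 307 and 313 CPM against 892, 502, 342 and 700 CPM in DMSO 1 to 4, and its GC-adjusted change was -0.65 ± 0.16 (edgeR adjusted p = 0.0734). PPAN was at 32.4, 107, 16.2 and 22.4 CPM, against 43.8, 37.5, 28.7 and 37.3 CPM. It was above the DMSO range at 60 µM, within it at 40 µM and below it at 80 and 100 µM. PPAN shares its locus with the read-through gene PPAN-P2RY11 on the same strand, so its counts are uncertain.

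The other 8 large subunit genes, among them the nucleolar GTPase GNL3, the 28S RNA methyltransferase NOP2, the 5S particle loading factor RRS1 and the stalk assembly factor MRTO4, had GC-adjusted log2 fold changes between -0.62 (MRTO4) and -0.2 (NOP2). In all, 15 of the 44 genes overlapped another gene of the table, 2 of them (PPAN and RRS1) on the same strand. Whether the counting used strand is not given in the sources used here, so reads of such pairs may be shared.

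LYAR, a nucleolar zinc-finger protein (ENSG00000145220, chr4:4267701-4290169), and DDX21, a helicase of the nucleolus, had GC-adjusted log2 fold changes of -0.88 ± 0.31 and -0.39 ± 0.1 (edgeR adjusted p = 0.168 and 0.0769). LYAR passed the threshold in DESeq2 with the covariate and all libraries (adjusted p = 0.00694), where 2038 genes in all were called. LYAR was at 2.22, 0, 10.3 and 11.3 CPM with rising dose, against 7.54, 15, 22.8 and 12.1 CPM in DMSO 1 to 4. The 40 and 60 µM values were below the DMSO range, and the 80 and 100 µM values were between DMSO 1 and DMSO 4. DDX21 was at 15.1, 1.93, 104 and 110 CPM, against 34.1, 129, 282 and 61.9 CPM, and its 56.9-fold range with lenvatinib was the widest among the genes of the set with counts in every library.

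Of the RNA polymerase I genes, the large subunit gene POLR1A (ENSG00000068654, chr2:86020216-86106155) was at 108, 48.4, 92.7 and 94.2 CPM with rising dose, against 125, 108, 118 and 130 CPM in DMSO 1 to 4. Rounded to 3 digits the 40 µM value equals the lowest DMSO value, and unrounded it was below it. POLR1B, the second subunit (ENSG00000125630, chr2:112541915-112577150), was at 35.1, 6.6, 47.9 and 25.1 CPM, against 36.5, 56.6, 61.2 and 51.3 CPM. The 80 µM value was within the DMSO range and the 100 µM value below it, and no other gene of the set had a larger ratio between these doses. UBTF (ENSG00000108312, chr17:44205033-44221626) was at 108, 70, 112 and 115 CPM, against 106, 101, 124 and 115 CPM. The GC-adjusted log2 fold changes were -0.37 ± 0.21, -0.48 ± 0.35 and -0.01 ± 0.13 for POLR1A, POLR1B and UBTF (edgeR adjusted p = 0.362, 0.481 and 0.981).

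MYC itself showed no difference beyond the spread. MYC (ENSG00000136997, chr8:127735434-127741434) was at 30.7, 38, 13.9 and 16.9 CPM with rising dose, against 23.7, 27.6, 11.6 and 22.4 CPM in DMSO 1 to 4. The 40 and 60 µM values were above the DMSO range and the others within it. Its log2 fold change was 0.22 ± 0.43 without the covariate and -0.24 ± 0.24 with it (edgeR adjusted p = 0.878 and 0.614), and with library totals alone the first of these was -0.06. MAX (ENSG00000125952, chr14:65006174-65102695) was at 29.9, 31.5, 22.3 and 27 CPM, against 28.3, 24.8, 26.2 and 26.5 CPM, with a GC-adjusted log2 fold change of -0.03 ± 0.13 (edgeR adjusted p = 0.919; 0.08 with library totals alone). A p that misses the threshold does not show that the levels were equal.

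Per length, on the authors' deposited TPM scale, the genes of the set differed widely in level. NPM1, NHP2 and FBL were highest in DMSO, and in lenvatinib libraries they averaged 367 ± 354, 507 ± 69 and 462 ± 109 TPM, against 753 ± 574, 582 ± 89 and 581 ± 115 TPM with DMSO (SD, n = 4 each). MYC averaged 26.2 ± 6.03 TPM with lenvatinib and 26.3 ± 8.64 TPM with DMSO. UTP20, the lowest of the set in DMSO, averaged 2.86 ± 3.04 TPM with lenvatinib and 6.49 ± 6.31 TPM with DMSO. The TPM ranges of NPM1, NHP2 and FBL overlapped between arms. FBL ran from 357 to 612 TPM with lenvatinib and from 467 to 734 TPM with DMSO. Its lenvatinib values other than the highest were below the DMSO range.

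The 80 and 100 µM libraries, alike in GC slope, were also set against the same DMSO libraries without a covariate. Here 41 of the 44 genes were lower, with a median log2 fold change of -0.34, against 51% lower and a median of -0.01 over the 11914 genes tested. The log2 fold change still correlated with GC content, at r = -0.51 over the 44 genes and -0.29 over all genes with a GC value. None of the 44, and no other gene, passed the adjusted threshold in edgeR (0%). At an unadjusted p under 0.05, 6 of the 44 were lower (SNU13, PPAN, PES1, UTP4, MRTO4 and NOP16), against 4.41% of all genes; 915 genes were past it in either direction. DESeq2 called 278 genes, 1 of them in the set, and limma-voom called 0. The called member was SNU13, with a log2 fold change of -2.07 in DESeq2 and -2 ± 0.46 in edgeR (edgeR adjusted p = 0.372).

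Both high-dose values were below the DMSO range for 14 of the 44 genes (11.5% of all genes) and above it for none (9.95% of all genes). The 14 were SNU13, NOP56, FBL, GAR1, UTP4, NAT10, NOP2, NOP16, PES1, RRP1, PPAN, MRTO4, NOC2L and POLR1A. For 24 of the 44 both values fell inside the DMSO range. All 14 genes of the set over 55% GC were lower in this comparison, against 70.7% of tested genes in that range, and 11 of the 12 under 45% GC were lower, against 33.2%. Without DMSO 3, the library with the lowest GC slope, 30 of the 44 were lower.

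Libraries nearest in GC slope gave a direct reading with no model and no test. The 80 and 100 µM libraries were set against DMSO 2 on a log2 scale with 1 CPM added. Both were below DMSO 2 for 35 of the 44 genes (43.8% of all genes) and both above it for 3, with a median log2 ratio of -0.3 for the set and -0.02 for all genes. The 40 µM library was below DMSO 1 for 31 of the 44 (52.9% of all genes) and above it for 13, with a median of -0.27 for the set and -0.03 for all genes. The GC slopes of these pairs still differed, at 0.67 at 40 µM against 0.28 in DMSO 1.

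Within the lenvatinib arm, the log2 change per 20 µM had no common sign in the set. It was positive for 23 and negative for 21 of the 44 genes. None passed the adjusted threshold in edgeR, nor did any other gene (0%). At an unadjusted p under 0.05 there were 5 of the 44 (NOP58, WDR43 and NOC3L with positive slopes, PES1 and FBL with negative slopes), against 7.4% of all genes (875). DESeq2 called 131 genes, 1 of them in the set, and limma-voom called 0. The GC slopes of the libraries, high at 40 and 60 µM and low at 80 and 100 µM, run with the dose, and the 2 cannot be told apart in this arm.

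Genes with and without the E-box had like values. With the GC slope as covariate the median log2 fold change was -0.43 over the 18 genes of the set with the motif and -0.42 over the 19 without it, and all were negative. Over all genes tested it was -0.07 in either class. The promoter windows of the set had a median GC content of 65.3%, against 65% for genes tested.

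Wider lists of the same pathway, none of whose genes belong to the 44, were read in the GC-adjusted edgeR fit, where no gene of any list passed the adjusted threshold. Over all genes tested in this fit, 57.2% were lower, 11.9% of all genes at an unadjusted p under 0.05. Of the other small subunit factors all 42 tested were lower, 11 at an unadjusted p under 0.05, with a median log2 fold change of -0.38. RRP7A, a processome subunit, had -0.6 ± 0.19 and LTV1, a 40S export factor, -0.79 ± 0.27. Without the covariate RRP7A had -0.09 ± 0.44 and LTV1 -1.3 ± 1.32. Of the other large subunit factors 41 of 43 were lower, 15 of them at an unadjusted p under 0.05, with a median of -0.35. NOL8 had -0.96 ± 0.21 and the helicase DDX27 -0.51 ± 0.12 (edgeR adjusted p = 0.0513 and 0.0568). Without the 60 µM library 19 of the 42 and 19 of the 43 were called lower, against 13.7% of all genes.

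The RNA exosome, which trims ribosomal RNA precursors, had 13 of 14 genes lower with a median of -0.32, and EXOSC9 had -0.43 ± 0.14 and EXOSC5 -0.64 ± 0.24. Without the covariate EXOSC9 had -0.89 ± 0.64 and EXOSC5 -0.05 ± 0.48, and the arms of both overlapped. Without the 60 µM library EXOSC9 was called lower and EXOSC5 was not (edgeR adjusted p = 0.0227 and 0.175). The other RNA polymerase I genes had 10 of 12 lower with a median of -0.18. CD3EAP (POLR1G), a subunit of the enzyme, was at 4.28, 2.58, 8.49 and 7.27 CPM with rising dose, against 10.2, 10.6, 27.1 and 16.4 CPM in DMSO 1 to 4, without overlap. Its GC-adjusted log2 fold change was -1.12 ± 0.26 (edgeR adjusted p = 0.0583, and 0.0168 without the 60 µM library). TTF1, the termination factor, had -0.71 ± 0.24.

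The relatives of MYC and MAX had no common direction, with 6 of 10 lower and a median of -0.02. MLXIPL, a glucose-responsive factor that dimerises with MLX, was at 11.2, 30.3, 14.8 and 7.11 CPM with rising dose, against 4.82, 4.3, 5.21 and 7.2 CPM in DMSO 1 to 4. The 100 µM value was within the DMSO range and the others above it, and the GC-adjusted log2 fold change was 1.1 ± 0.34 (edgeR adjusted p = 0.121). MXI1, an antagonist of MYC, had 0.4 ± 0.15, and -0.1 ± 0.7 without the covariate. It was at 1.77 to 17.5 CPM with lenvatinib and 5.62 to 17.1 CPM with DMSO, so its arms overlapped. Without the 60 µM library MLXIPL and MXI1 were called higher (edgeR adjusted p = 0.0335 and 0.0384), as were 1142 of all 11864 genes tested there.

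Among textbook MYC targets outside the nucleolus 14 of 19 were lower, 7 at an unadjusted p under 0.05, with a median of -0.19; over all genes tested 57.2% were lower, 11.9% at an unadjusted p under 0.05, with a median of -0.06. LDHA, lactate dehydrogenase, was at 566, 264, 577 and 607 CPM with rising dose, against 1010, 918, 782 and 1070 CPM in DMSO 1 to 4. ODC1, the first enzyme of polyamine synthesis, was at 312, 117, 167 and 180 CPM, against 472, 299, 238 and 456 CPM. LDHA did not overlap between arms, and ODC1 did only at 40 µM. Their GC-adjusted log2 fold changes were -0.79 ± 0.23 and -0.97 ± 0.35 (edgeR adjusted p = 0.104 and 0.168), and SRM, spermidine synthase, had -0.55 ± 0.2. Without the covariate SRM had 0.35 ± 0.64. Its arms overlapped, at 1080, 1560, 319 and 311 CPM with rising dose, against 1090, 471, 275 and 734 CPM in DMSO 1 to 4. Without the 60 µM library 8 of the 19 were called lower, against 13.7% of all genes. LDHA, ODC1 and SRM were among them (edgeR adjusted p = 0.00252, 0.000652 and 0.00165).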

How the data were processed

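The counts, TPM and FPKM were deposited by the authors as one table, per the file headers. The tools, per the submitters' processing notes, include HISAT2, StringTie, bedtools and FastQC on GRCh38; their versions, the annotation release and the library's strandedness were not given in the sources used here. Tests used the whole-number counts; TPM gave levels per length; the FPKM values the authors deposited were not used. Library totals and limits are in the report.

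Genes averaging 1 CPM or more (11827, with 99.9% of counts) were fitted with edgeR 4.0.16 (R 4.3.3; TMM, robust quasi-likelihood, Benjamini-Hochberg over all genes tested, called under 0.05) in 4 comparisons: lenvatinib against DMSO, the same with the library's GC slope as covariate, 80 and 100 µM against DMSO (11914 genes), and dose (per 20 µM, centred at 70 µM). SE is the estimate over the square root of F. GC content is that of the longest GENCODE v29 transcript, and 20224 of 20263 identifiers matched. Gene positions are those of the deposited table, and 34 of the 44 were the same in GENCODE v29. log2 levels in figures use a prior count of 2. The fits were also run on simulated counts with a linear GC trend in each library and the same dispersion (spread setting) for every gene. The covariate assumes such a trend, so the simulation cannot show how well the fits work on these data.

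The 44 genes, the lists and the GC covariate were chosen with earlier results of these data known. Values in every library are given for NCL, NPM1, FBL, NOP56, NOP58, DKC1, POLR1A, POLR1B, UBTF, MYC, MAX, called genes and the 3 lowest (LYAR, NOP58 and UTP20) and 3 highest (NOC4L, NOP53 and BOP1) log2 fold changes; up to 4 genes of each wider list with the lowest adjusted p in the GC-adjusted fit could be named; other members with per-library values were chosen after their values were seen. Alternatives were DESeq2 1.42.0, limma-voom (limma 3.58.1), other scalings and filters, a replicate block and leaving out libraries.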

Additional observations from a re-analysis of the deposited data

Results flagged for a closer look

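In each arm of 4 libraries, the gap of the highest or lowest level to its nearest neighbour was compared with the whole range of the arm. Of 88 pairs of gene and arm, 4 had a gap above Dixon's 95% critical value, all in the lenvatinib arm, and chance flags about 1 in 20 groups. NOP56 was at 29.3 CPM at 60 µM, while the other lenvatinib libraries lay at 92.5 to 101 CPM. GAR1 was at 12.1 CPM at 60 µM, with the others at 18.9 to 19.6 CPM. UBTF was at 70 CPM at 60 µM, with the others at 108 to 115 CPM. NOP2 was at 165 CPM at 40 µM, with the others at 127 to 132 CPM. The 60 µM library, which holds 3 of the 4, also had the fewest counts (10181973) and the highest GC slope (1.82), and their part in these values was not tested.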

How the results depend on the processing

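The negative count and the median of the set kept their direction in every alternative run: of the 44 genes, 41 to 44 were lower in the GC-adjusted fit, 29 to 41 without the covariate and 30 to 43 at 80 and 100 µM. Counts of called genes depended on the tool. In the GC-adjusted fit 386 genes were called, 1 of them in the set. The counts, with those of the set second, were 2038 and 17 with DESeq2, 1015 and 9 with DESeq2 size factors in edgeR, 674 and 2 with library totals only, and 830 and 4 with limma-voom. No filter gave 254 genes, with 1 of the set, a filter at 5 CPM gave 543 and 5, and leaving out the libraries with the highest and the lowest GC slope (60 µM and DMSO 3) gave 2883 and 31. Leaving out single libraries gave 0 to 2763 genes (0 without 80 µM, 2763 without 60 µM, 9 without 100 µM, 1006 without 40 µM, and 15 to 216 without a DMSO library) and 0 to 30 of the set. DESeq2 called 94 genes without the covariate, 278 at 80 and 100 µM (1 of the set) and 131 for dose (1 of the set). The GC slope as covariate at 80 and 100 µM gave 2483 genes and 23 of the set. The cause of these differences was not tested. In that covariate fit and where 80 or 100 µM was left out of the high-dose fit, few residual degrees of freedom remain, and a lone library is assumed to vary like those with DMSO.

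The median log2 fold change of the set was -0.29 without the libraries of highest and lowest GC slope, and -0.54 to -0.29 without single libraries, in the fit without covariate (-0.46 with all). It was -0.31 with library totals only and -0.5 to -0.37 without single libraries in the GC-adjusted fit, and -0.18 and -0.44 to -0.31 at 80 and 100 µM. Library totals moved the median of all genes by 0.18 there.

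The labels do not say whether the numbers in the titles pair libraries, and the deviations of same-numbered libraries, which include their GC slopes, had no common sign (correlations 0.63, -0.46, 0.84 and -0.61); the libraries were not treated as paired. A replicate block on these numbers gave 232 genes in the GC-adjusted fit and 16 at 80 and 100 µM; with it FBL was -0.09 without the covariate, MYC 0 and NOP53 0.03 with it, and UBTF -0.04 and NOP53 0.01 at 80 and 100 µM.

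Genes under the threshold changed sign as follows. Without the covariate, FBL (0.04), MYC (0.22) and MAX (0.07) were -0.25, -0.06 and -0.11 with library totals, and FBL and MYC -0.07 and -0.01 with limma-voom. Without the libraries of highest and lowest GC slope NCL was 0.09, FBL -0.46, NOP58 0.33, UBTF 0.06, MYC -0.26, MAX -0.01, BOP1 -0.38 and NOC4L -0.27. Without single libraries FBL ran from -0.27 to 0.27, UBTF from -0.21 to 0.02, MYC from -0.05 to 0.42, BOP1 from -0.15 to 0.85 and NOC4L from -0.03 to 0.99. In the GC-adjusted fit UBTF was 0.02 with DESeq2 and with its size factors, 0.11 with library totals, 0.01 with the 5 CPM filter and 0.05 without the 2 libraries of highest and lowest slope, where MAX was 0; MAX and NOP53 were 0.08 and 0.07 with library totals. Without single libraries UBTF ran from -0.07 to 0.05, NOP53 from -0.16 to 0.02 and MAX from -0.11 to 0.07. At 80 and 100 µM UBTF was 0 with DESeq2 and with its size factors, DKC1 and MAX were 0.06 and 0.15 with library totals, NCL and NOP58 were 0.2 and 0.42 with limma-voom, and NOP53 was 0.06 with the GC covariate. Without single libraries UBTF ran from -0.01 to 0.11, NCL from -0.48 to 0.61, NPM1 from -0.49 to 0.12, NOP58 from -0.59 to 0.94, DKC1 from -0.2 to 0.07, UTP20 from -0.55 to 0.34 and MAX from -0.21 to 0.06; the upper ends of NCL, NPM1, NOP58, DKC1 and UTP20 are those without DMSO 3. The limma-voom fits with the covariate, for dose and at 80 and 100 µM, and those without the 2 libraries of highest and lowest slope, were chosen after seeing the data. At 60 µM, the library with the fewest counts and the highest GC slope, 5 of the 44 genes had 0 counts; the part of either was not tested.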
